A study of Mus musculus with 9 samples.

Results

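DNA repair genes were followed in sorted thymic tuft cells of mice 3 days after sublethal irradiation and of untreated mice. The set was a fixed list of 37 gene symbols from 8 repair pathways or complexes, looked up by name and not by a threshold on their values, of the 13223 genes in the deposited table. The table held 36 of them, H2afx under its newer symbol H2ax, and Chek1 was not analysed here. Of the 36, 29 were abundant enough to be tested and 7 lay under the low-count filter.

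Both groups were young wild-type (WT) female mice, the untreated ones matched for age. There were 5 untreated libraries and 4 libraries of mice given 425 rad 3 days before the thymus was taken, and no other allele or agent is named. Tuft cells, rare chemosensory epithelial cells of the thymic medulla, were sorted from enzymatically dissociated thymus and profiled in bulk by MARS-seq, which counts the 3' ends of polyadenylated transcripts. The labels number the libraries without tying each to a mouse, so each p reflects only how these libraries scatter, and some of that scatter may be technical. In bulk RNA, fewer cells of a type and less RNA per cell cannot be told apart.

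Ionizing radiation breaks one or both strands of DNA and damages bases. A broken double strand is held by the MRN complex (Mre11, Rad50, Nbn), which activates the kinase ATM, while ATR answers to single-stranded DNA coated by replication protein A. Ends are joined directly by Ku, DNA-PKcs, XRCC4 and ligase IV at any phase of the cycle, or copied from the sister chromatid by homologous recombination, with BRCA1 and BRCA2, in S and G2 phase. Base lesions and single-strand breaks go through PARP, XRCC1, polymerase beta and ligase III, bulky lesions through nucleotide excision repair, and crosslinks through the Fanconi proteins. Much of the early response to damage runs by phosphorylation of these proteins, which transcript counts do not show.

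Library totals ran from 509157 to 978442 counts, so that a single count equalled 1.02 CPM in the deepest library and 1.96 CPM in the shallowest. CPM is a count expressed relative to its library's total; levels below were in addition scaled by TMM, which evens out composition between libraries, and are given as mean ± SD over 5 untreated and 4 irradiated libraries. Each change is the log2 ratio of the irradiated to the untreated level ± SE. All 13 tuft cell markers were detected in both groups, with a summed level of 7343 to 16350 CPM in untreated and 12550 to 16940 CPM in irradiated libraries. Irradiated replicate 4 stood apart from all others along the leading principal component (35.5% of variance), with a score of 78.48 where the remaining 8 scored -32.22 to 5.88. Thymocyte markers summed to 1072 CPM in untreated replicate 1, 94.96 to 286 CPM in the other untreated libraries and 27.3 to 52.4 CPM in irradiated libraries. The other marker lists had summed means of 187 untreated and 161 irradiated CPM for B cells, 1013 and 439 for macrophages and dendritic cells, 1181 and 2966 for fibroblasts and pericytes, 561 and 667 for endothelium, 3195 and 4005 for other thymic epithelium (mostly Krt8, at 2327 and 3481) and 499 and 1304 for mesothelium. Of these lists, 4 of 5 tested mesothelium genes rose, 1 of 8 tested macrophage and dendritic cell genes (Ccr7) fell, and the B cell markers Cd79a and Ms4a1 were at 0 in the irradiated group. Of the 8 tested genes of other thymic epithelium 0 were called, and 6 had a fold change below 0 (median -1.22). Untreated and irradiated means were 292 and 138 CPM for Krt5, 63.3 and 18.3 CPM for Aire and 116 and 49.3 CPM for Fezf2. Untreated replicate 2 set much of these untreated means, at 732 CPM for Krt5, 207 CPM for Aire and 347 CPM for Fezf2. The other untreated libraries ran from 62.8 to 286, 13.5 to 46.0 and 33.5 to 85.2 CPM. Irradiated libraries ran from 118 to 159, 3.11 to 32.1 and 36.4 to 58.8 CPM. The part of all these cell types in the levels below was not tested.

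Genes of a p53 response list were followed in the same libraries, while p53 activity itself was not measured. Cdkn1a, the cell cycle inhibitor induced by p53, was at 290, 356, 291, 414 and 427 CPM in untreated replicates 1 to 5 and at 921, 870, 740 and 1760 CPM in irradiated replicates 1 to 4. It rose by 1.58 ± 0.26 (edgeR adjusted p = 0.00521), and the groups did not overlap. Mdm2, the ubiquitin ligase that degrades p53, averaged 94.97 ± 18.8 CPM in the untreated group and 156 ± 52.2 CPM in the irradiated group (0.71 ± 0.24, edgeR adjusted p = 0.230). Untreated libraries ran from 71.3 to 116 CPM, and irradiated replicates 1 to 4 were at 212, 162, 165 and 85.6 CPM. Only irradiated replicate 4 lay within the untreated range. Of 10 tested genes of that list, Cdkn1a and the receptor gene Eda2r rose, 0 fell, and all 10 had a fold change above 0.

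No DNA repair gene passed the test in either direction. Of the 29 tested, 0 were called at an edgeR adjusted p under 0.05, against 1.33% of the 8934 genes tested in the whole table. By direction, 0 were higher, against 1.21% of all tested genes, and 0 lower, against 0.123%. At an unadjusted p under 0.05 there were 3, all lower, against 10.6% of all tested genes in either direction and 4.5% lower. These were Xrcc6, Lig4 and Parp2, with an unadjusted p of 0.0304, 0.0366 and 0.0445 by edgeR and adjusted p of 0.383, 0.410 and 0.447. Of the 29 fold changes, 22 lay below 0 and 7 above, against 52.4% below 0 among all tested genes, and the median was -0.22, against -0.02 over all genes. Without untreated replicate 1 and irradiated replicate 4, a choice made after the data were seen, 17 lay below 0 and the median was -0.10; leaving out 1 library gave medians from -0.351 (irradiated replicate 3) to -0.104 (irradiated replicate 2), with -0.115 for untreated replicate 1 and -0.141 for untreated replicate 4. In the authors' deposited table, none (0) of the 36 genes had an adjusted p under 0.05, the smallest being 0.246.

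The intervals show what size of change the libraries could have hidden. The pointwise 95% interval lay wholly below a doubling for 27 of the 29 genes and wholly above a halving for 17, and lay within both bounds for 15. Over all 8934 tested genes these counts were 7442, 6968 and 5611. Among the 29, the narrowest interval was that of Polb, from -0.17 to 0.59 on the log2 scale. The intervals of Lig3 (-0.20 to 1.08) and Rad23b (-0.62 to 1.29) reached past a doubling, and that of Xrcc6 (-2.37 to -0.14) reached furthest past a halving.

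**Figure D1:**
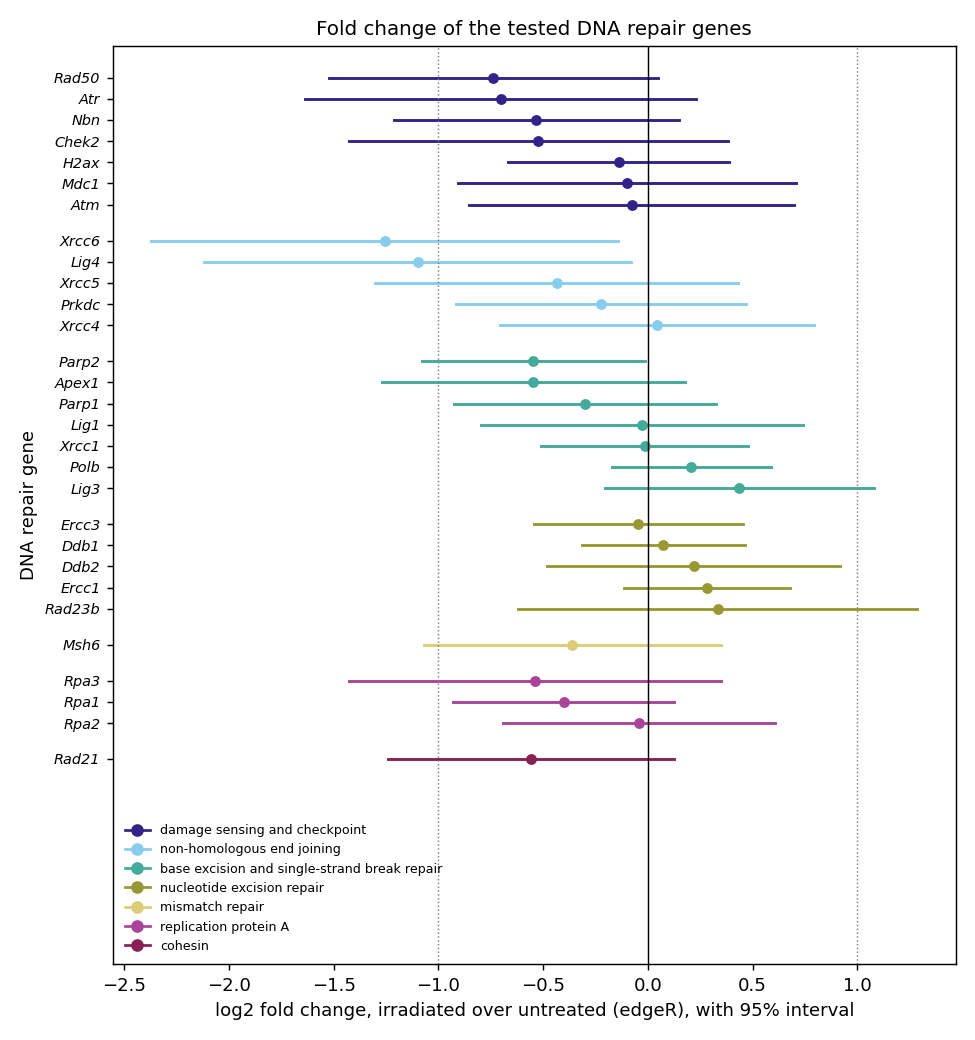
Fold change of each tested DNA repair gene on the x axis (log2, irradiated over untreated, edgeR), with the pointwise 95% interval as a line and genes grouped by pathway; dotted lines mark a doubling and a halving. The intervals of Xrcc6, Lig4 and Parp2 lie below 0, and no gene passed the test after adjustment.

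The upstream sequences of the genes with the smallest p are shown first, since their levels are described next. Each is the stretch of 250 bases before the RefSeq start of the gene in the GRCm38.p6 build, 5' to 3' on the gene's strand. Capitals mark an octamer of the E2F type, TTTCCCGC or TTTGGCGC on either strand, a kind of site found upstream of many S-phase genes. The windows are chr15:82016119-82016368 on the plus strand for Xrcc6, chr8:9977681-9977930 on the minus strand for Lig4 and chr14:50807666-50807915 on the plus strand for Parp2.
Xrcc6: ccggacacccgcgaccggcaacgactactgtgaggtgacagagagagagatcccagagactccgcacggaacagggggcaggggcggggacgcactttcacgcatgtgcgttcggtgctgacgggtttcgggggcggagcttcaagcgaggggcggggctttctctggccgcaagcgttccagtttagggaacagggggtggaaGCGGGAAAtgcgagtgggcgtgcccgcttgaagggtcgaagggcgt
Lig4: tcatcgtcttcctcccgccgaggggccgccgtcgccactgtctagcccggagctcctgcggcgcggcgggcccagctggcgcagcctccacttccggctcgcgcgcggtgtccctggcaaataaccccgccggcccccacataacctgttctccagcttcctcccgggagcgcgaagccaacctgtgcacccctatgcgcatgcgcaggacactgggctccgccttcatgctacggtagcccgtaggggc
Parp2: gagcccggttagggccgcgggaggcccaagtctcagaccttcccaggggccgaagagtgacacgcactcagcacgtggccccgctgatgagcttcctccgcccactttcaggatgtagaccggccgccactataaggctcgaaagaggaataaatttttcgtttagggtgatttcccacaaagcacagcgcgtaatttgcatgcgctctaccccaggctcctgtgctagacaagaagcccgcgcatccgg

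The Xrcc6 window held 1 octamer, which begins at position -46 from the start, and the windows of Lig4 and Parp2 held none. RefSeq windows were matched for 27 of the 37 listed genes, and 4 of them (14.8%) held an octamer, against 1.5% of the 27025 genes with a window. Among 25 matched proliferation genes 4 held one (16.0%). The other repair genes were Chek2, Mdc1 and Brca2, whose octamers are shown with up to 20 bases on each side, from chr5:110839811-110839858, chr17:35841462-35841497 and chr5:150522433-150522480, all on the plus strand. A match describes the letters and does not show binding.
Chek2: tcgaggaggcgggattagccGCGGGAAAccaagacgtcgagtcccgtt
Mdc1: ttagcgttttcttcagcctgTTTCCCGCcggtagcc
Brca2: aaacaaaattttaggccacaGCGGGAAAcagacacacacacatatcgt

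Among the tested genes of the fixed list, the end-joining genes Xrcc6 and Lig4 had the lowest fold changes. Of 5 tested end-joining genes, 0 were called and 4 had a fold change below 0, with a median of -0.44. That median was -0.155, with 5 of 5 below 0, when untreated replicate 1 and irradiated replicate 4 were left out. It was -0.135 when only the latter was. Xrcc6 encodes Ku70, which with Ku80 forms the ring that clasps a broken end. Xrcc6 stood at 164, 49.6, 41.8, 41.9 and 47.5 CPM in untreated replicates 1 to 5 and at 21.8, 30.5, 47.9 and 12.8 CPM in irradiated replicates 1 to 4. Untreated replicate 1 was far above every other library, and irradiated replicate 3 lay within the range of the other untreated libraries, so the groups overlapped. The means were 69.0 ± 53.4 and 28.3 ± 15.0 CPM, a log2 fold change of -1.26 ± 0.51 (edgeR adjusted p = 0.383). Without untreated replicate 1 the fold change was -0.63 (edgeR adjusted p = 0.611), and without both that library and irradiated replicate 4 it was -0.42. GENCODE places the gene on the plus strand of chromosome 15 (81987835 to 82040085, mm10), a span that holds the RefSeq start used for the sequence above, and its exons overlap those of Desi1 on the opposite strand.

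Lig4, the ligase that seals the joined ends, showed the other low value. It was at 28.2, 16.0, 36.9, 22.3 and 27.9 CPM in untreated libraries and at 9.33, 18.9, 16.7 and 0 CPM in irradiated replicates 1 to 4. Irradiated replicate 4 held no Lig4 count, which at its depth allows up to 3 counts, and irradiated replicates 2 and 3 lay just above the lowest untreated library. The means were 26.3 ± 7.74 and 11.2 ± 8.54 CPM, a log2 fold change of -1.10 ± 0.48 (edgeR adjusted p = 0.410). Without irradiated replicate 4 it was -0.79 (edgeR adjusted p = 0.422). GENCODE places Lig4 on the minus strand of chromosome 8 (9969049 to 9977686).

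The other end-joining genes were closer to no change. Xrcc5, the Ku80 partner of Ku70, was at 48.1, 36.5, 31.9, 26.2 and 44.7 CPM in untreated libraries and at 45.1, 35.7, 23.4 and 4.28 CPM in irradiated libraries. Only irradiated replicate 4 lay well below the untreated range. The fold change was -0.44 ± 0.41, and -0.14 without that library. Prkdc, the catalytic subunit of DNA-PK that Ku recruits, was at 24.7 ± 7.73 and 20.9 ± 7.08 CPM (-0.22 ± 0.32). Xrcc4, the scaffold of ligase IV, was at 17.0 ± 4.61 and 17.6 ± 6.24 CPM (0.05 ± 0.35).

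**Figure D2:**
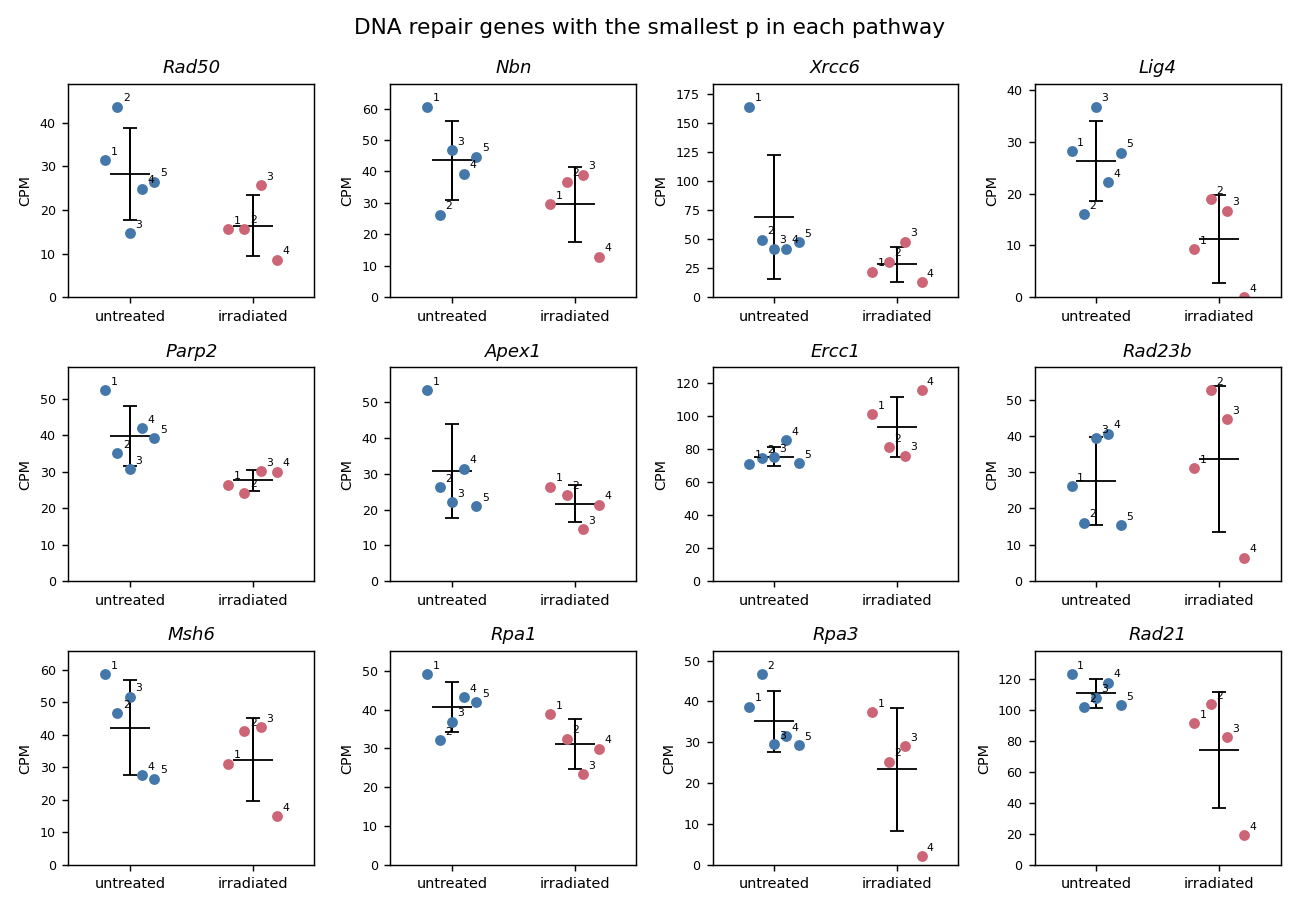
CPM of 12 DNA repair genes in each library (y axis from 0; points are libraries labelled with their replicate number, bars the mean and SD of 5 untreated and 4 irradiated libraries). Irradiated replicate 4 is the lowest library for Rad50, Nbn, Xrcc6, Lig4, Rad23b, Msh6, Rpa3 and Rad21 and the highest for Ercc1, and the groups are apart for Parp2.

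All 7 tested genes of damage sensing and checkpoint signalling had a fold change below 0, with a median of -0.52, and 0 were called. Leaving out untreated replicate 1 together with irradiated replicate 4 gave 5 of 7 below 0 and a median of -0.162. The median was -0.223 without untreated replicate 1 alone, over 6 genes since Chek2 was not tested there. It was -0.317 over 7 genes without irradiated replicate 4 alone. Rad50, the zinc-hook ATPase that tethers broken ends in the MRN complex, was at 31.4, 43.8, 14.7, 24.9 and 26.5 CPM in untreated and 15.6, 15.8, 25.6 and 8.56 CPM in irradiated libraries. The groups overlapped, since untreated replicate 3 was below 3 of the 4 irradiated libraries. The fold change was -0.74 ± 0.37 (edgeR adjusted p = 0.513). Nbn, the MRN subunit that recruits ATM, was at 60.7, 26.3, 46.7, 39.3 and 44.7 CPM in untreated and 29.6, 36.8, 39.0 and 12.8 CPM in irradiated libraries. Untreated replicate 2 lay below 3 of the 4 irradiated libraries, and irradiated replicate 4 was lowest. The fold change was -0.53 ± 0.32 (edgeR adjusted p = 0.623), and -0.32 without irradiated replicate 4. Mre11a, the MRN nuclease, fell under the filter, with 2 to 7 counts in each untreated and 2 to 6 in each irradiated library.

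Of the kinases, the ATM gene Atm averaged 19.0 ± 5.88 CPM untreated and 17.8 ± 7.15 CPM irradiated, a log2 fold change of -0.08 ± 0.36. Atr, whose exons overlap genes on the opposite strand, was at 22.8 ± 11.8 and 13.6 ± 6.30 CPM (-0.70 ± 0.44, edgeR adjusted p = 0.638). Its highest library was untreated replicate 1 at 40.8 CPM and its lowest irradiated replicate 4 at 4.28 CPM, and the fold change was -0.37 when the former was left out and -0.14 when both were. Chek2, the checkpoint kinase downstream of ATM, was at 18.0 ± 9.90 and 12.4 ± 2.35 CPM (-0.52 ± 0.42). The group means of these kinases thus differed by less than the SD of the untreated libraries. For Atr and Chek2 they differed by more than the SD of the irradiated libraries.

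Of the genes whose proteins mark or read a break in chromatin, H2ax and Mdc1 had similar transcript levels in both groups. The phosphorylated mark itself was not measured. H2ax encodes the histone variant that ATM phosphorylates around a break, and was at 97.3, 65.6, 50.4, 86.5 and 79.6 CPM in untreated and 46.7, 63.0, 74.7 and 96.3 CPM in irradiated libraries. The ranges nearly coincided, with a log2 fold change of -0.14 ± 0.25 (interval -0.67 to 0.39). Mdc1, the reader of that phosphorylated histone, was at 23.2 ± 8.40 and 21.2 ± 10.04 CPM (-0.10 ± 0.38). Trp53bp1, which encodes 53BP1 and steers breaks toward end joining, fell under the filter with 34 counts over the untreated and 23 over the irradiated libraries.

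Parp2 was the only tested repair gene whose groups did not overlap, 1 of 29, against 5.17% of all tested genes in either direction and 1.95% lower. PARP2 is one of the enzymes that mark a strand break with poly(ADP-ribose). Parp2 was at 52.3, 35.0, 30.7, 41.9 and 39.1 CPM in untreated and 26.4, 24.2, 30.1 and 29.9 CPM in irradiated libraries. The gap between the groups was small, with the highest irradiated library just under the lowest untreated one. The means were 39.8 ± 8.17 and 27.7 ± 2.88 CPM, a log2 fold change of -0.55 ± 0.25 (edgeR adjusted p = 0.447), and -0.58 without irradiated replicate 4. GENCODE places Parp2 on the plus strand of chromosome 14 (50807841 to 50821301). Parp1, its more abundant relative in most cells, was at 30.4 ± 6.80 and 25.5 ± 7.26 CPM (-0.30 ± 0.29).

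The remaining base excision and single-strand break genes lay on both sides of 0, and the 7 together had a median of -0.03 with 5 below 0. That median turned with the libraries used: it was 0.094, with 3 of 7 below 0, when untreated replicate 1 was left out, and -0.23 when irradiated replicate 4 was. Apex1, the endonuclease that cuts at abasic sites, was at 53.4, 26.3, 22.1, 31.4 and 21.0 CPM in untreated and 26.4, 24.2, 14.5 and 21.4 CPM in irradiated libraries. Untreated replicate 1 was the highest library and the other libraries overlapped. The fold change was -0.55 ± 0.34 (edgeR adjusted p = 0.635), and -0.24 without untreated replicate 1. Polb, the gap-filling polymerase, was at 87.1 ± 9.56 and 101 ± 13.5 CPM (0.21 ± 0.18), and Xrcc1, the scaffold of the pathway, at 53.8 ± 12.98 and 54.3 ± 9.28 CPM (-0.02 ± 0.23). The nick-sealing ligase gene Lig3 was at 18.4 ± 3.80 and 25.1 ± 7.78 CPM (0.44 ± 0.30, edgeR adjusted p = 0.674). Lig1, the ligase of replication, was at 27.0 ± 14.4 and 27.7 ± 8.83 CPM (-0.03 ± 0.36), and untreated replicate 1, at 52.3 CPM, stood above the other 4 untreated libraries, which ran from 16.0 to 23.6 CPM.

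Within the fixed list, nucleotide excision repair was the pathway in which most fold changes lay above 0, 4 of 5 (median 0.22, 0 called). Of 16 other tested nucleotide excision genes, from a wider list given below, 12 lay below 0 (median -0.20). Among all tested genes 52.4% lay below 0. Ercc1, which with XPF cuts on the 5' side of a lesion, was at 71.1, 74.4, 74.95, 85.2 and 71.2 CPM in untreated and 101, 80.9, 75.8 and 116 CPM in irradiated libraries. Only untreated replicate 4 lay above any irradiated library. The fold change was 0.28 ± 0.19 (edgeR adjusted p = 0.657), and the exons of Ercc1 overlap those of Cd3eap on the opposite strand. Rad23b, a partner of the damage sensor XPC, was at 26.2, 16.0, 39.3, 40.6 and 15.4 CPM in untreated and 31.1, 52.5, 44.6 and 6.42 CPM in irradiated libraries. Irradiated replicate 4 was its lowest library, and the fold change was 0.33 ± 0.44 (edgeR adjusted p = 0.858). Leaving out 1 library moved it between 0.06, when irradiated replicate 2 was dropped, and 0.63, when irradiated replicate 4 was.

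The group means of the damage-binding pair Ddb1 and Ddb2 differed by less than the SD of the irradiated libraries. For Ddb1 they differed by more than the SD of the untreated libraries. Ddb2, the subunit that touches the lesion and a p53 target in human cells, was at 26.2, 11.7, 22.1, 28.8 and 29.3 CPM in untreated and 26.4, 24.2, 41.3 and 17.1 CPM in irradiated libraries. The groups overlapped, with a log2 fold change of 0.22 ± 0.33 (interval -0.48 to 0.92). Ddb1, its partner and an adaptor of CUL4 ubiquitin ligases, was at 263 ± 9.28 and 278 ± 64.4 CPM (0.07 ± 0.18). The TFIIH helicase gene Ercc3 was at 67.3 ± 13.9 and 66.7 ± 16.9 CPM (-0.05 ± 0.23).

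Replication protein A coats single-stranded DNA in replication and repair, and its 3 subunit genes had a median of -0.40 (-0.185 without untreated replicate 1 and irradiated replicate 4, and -0.223 without the latter alone) with 0 called. Rpa1 was at 49.2, 32.1, 36.9, 43.2 and 41.9 CPM in untreated and 38.9, 32.6, 23.4 and 29.9 CPM in irradiated libraries (-0.40 ± 0.25, edgeR adjusted p = 0.631). Its groups overlapped. Rpa3 was at 38.7, 46.7, 29.5, 31.4 and 29.3 CPM in untreated and 37.3, 25.2, 29.0 and 2.14 CPM in irradiated libraries (-0.54 ± 0.41, edgeR adjusted p = 0.727). Irradiated replicate 4, on 1 count, stood alone, and without it the fold change was -0.22. Rpa2 was at 35.4 ± 15.4 and 34.9 ± 4.02 CPM (-0.04 ± 0.30).

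Msh6, a subunit of the complex that recognises base mismatches, was at 58.6, 46.7, 51.6, 27.5 and 26.5 CPM in untreated and 31.1, 41.0, 42.4 and 15.0 CPM in irradiated libraries. The groups overlapped over most of their range, with a fold change of -0.36 ± 0.33 (edgeR adjusted p = 0.784). Rad21, the cohesin subunit that closes the ring around sister chromatids, was at 123, 102, 108, 118 and 103 CPM in untreated and 91.8, 104, 82.5 and 19.3 CPM in irradiated libraries. Untreated libraries were tightly grouped and irradiated replicate 4 lay far below all others. The fold change was -0.56 ± 0.32 (edgeR adjusted p = 0.593), and -0.27 without irradiated replicate 4.

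The 5 genes of homologous recombination and crosslink repair all lay under the low-count filter, with 18 to 50 counts each over all 9 libraries. Brca1, the ubiquitin ligase that promotes end resection, had 6, 5, 2, 2 and 2 counts in untreated and 0, 1, 3 and 0 in irradiated libraries. The pooled ratio of irradiated over untreated was 0.302 (exact 95% interval 0.0739 to 0.926, for counting error alone), and in the fit without a low-count filter the edgeR adjusted p was 0.583. Brca2, a mediator of strand exchange in recombination, had 16 counts over the untreated and 6 over the irradiated libraries (pooled ratio 0.481, interval 0.154 to 1.29). Fancd2, which is ubiquitinated at crosslinks, had 13 and 5 (0.494, interval 0.138 to 1.47), and all 5 irradiated counts were in replicate 3. Fanca, of the Fanconi core complex, had 26 and 24 counts (1.18, interval 0.651 to 2.15), and Xrcc2, which also acts in recombination, had 8 and 12 (1.93, interval 0.724 to 5.43). Among untreated libraries replicate 1, also the deepest, held the most counts of each of the 5 genes. The fit without a low-count filter called none of these 5 genes, and their intervals were too wide to settle the size of a change.

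Replicate 1 of the untreated group and replicate 4 of the irradiated group set much of the spread of the repair genes. Irradiated replicate 4 was the lowest of the 9 libraries for 13 of the 29 tested genes, against 26.6% of all tested genes, and the highest for 2, against 24.9%. Untreated replicate 1 was the highest for 14 of the 29, against 14.1% of all tested genes, and the lowest for 2. Relative to the untreated mean, the median repair gene stood at 0.20 (log2) in untreated replicate 1, between -0.18 and 0.03 in the other untreated libraries, between -0.24 and -0.12 in irradiated replicates 1 to 3 and at -0.51 in irradiated replicate 4. Irradiated replicate 4 had the smallest total of all libraries.

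**Figure D3:**
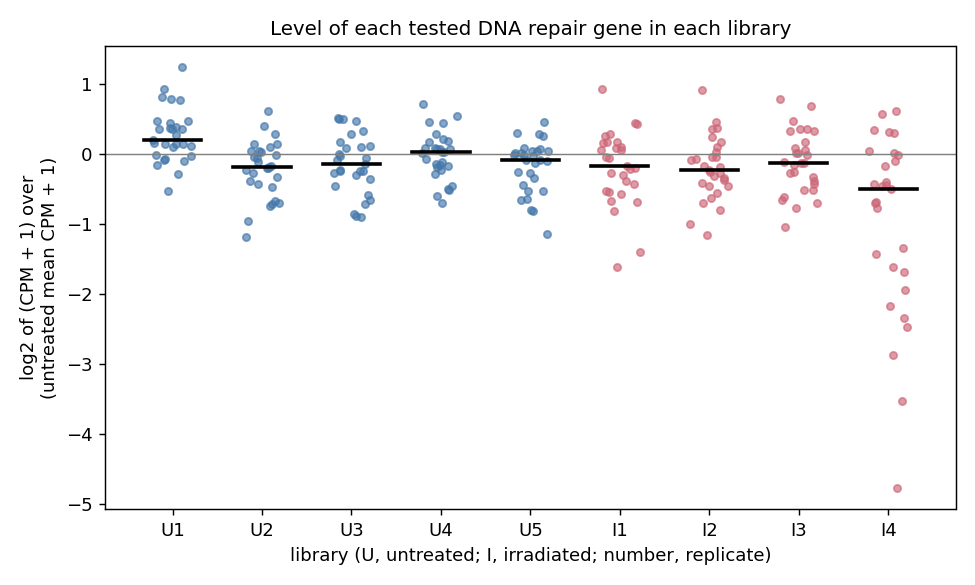
Level of each of the 29 tested DNA repair genes in each library, as log2 of CPM plus 1 over the untreated mean CPM plus 1 (points are genes, black bars the median over genes). The median is highest in untreated replicate 1 at 0.20 and lowest in irradiated replicate 4 at -0.51, where single genes reach much lower values.

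Genes of proliferation and of thymocytes were highest in untreated replicate 1, as were markers of macrophages and dendritic cells, at 2285 CPM there and 180 to 1126 CPM in the other untreated libraries, and of B cells, at 275 and 125 to 187 CPM. The proliferation list, of which 28 of 30 genes were in the table and 11 tested, summed to 1509 CPM in untreated replicate 1, 280 to 521 CPM in the other untreated libraries and 191 to 278 CPM in irradiated libraries, with Bub1 at 0 in the irradiated group. Of the 11 tested, 0 were called and all 11 had a fold change below 0. Top2a, the mitotic topoisomerase, was at 181, 42.3, 17.2, 53.7 and 12.6 CPM in untreated and 9.33, 7.36, 10.03 and 4.28 CPM in irradiated libraries (edgeR adjusted p = 0.189). The replicative helicase subunit Mcm5 was at 90.0, 30.6, 13.5, 22.3 and 23.7 CPM and at 12.4, 6.30, 7.80 and 4.28 CPM (edgeR adjusted p = 0.108), and Mki67, under the filter, had 147 and 9 counts. The thymocyte list had 13 of 14 genes in the table, with 4 tested and 0 called, and Ptcra, the pre-T cell receptor chain, was at 0 in the irradiated group. The part of these lists in the values of Xrcc6, Lig1, Apex1 and the recombination genes was not tested.

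**Figure D4:**
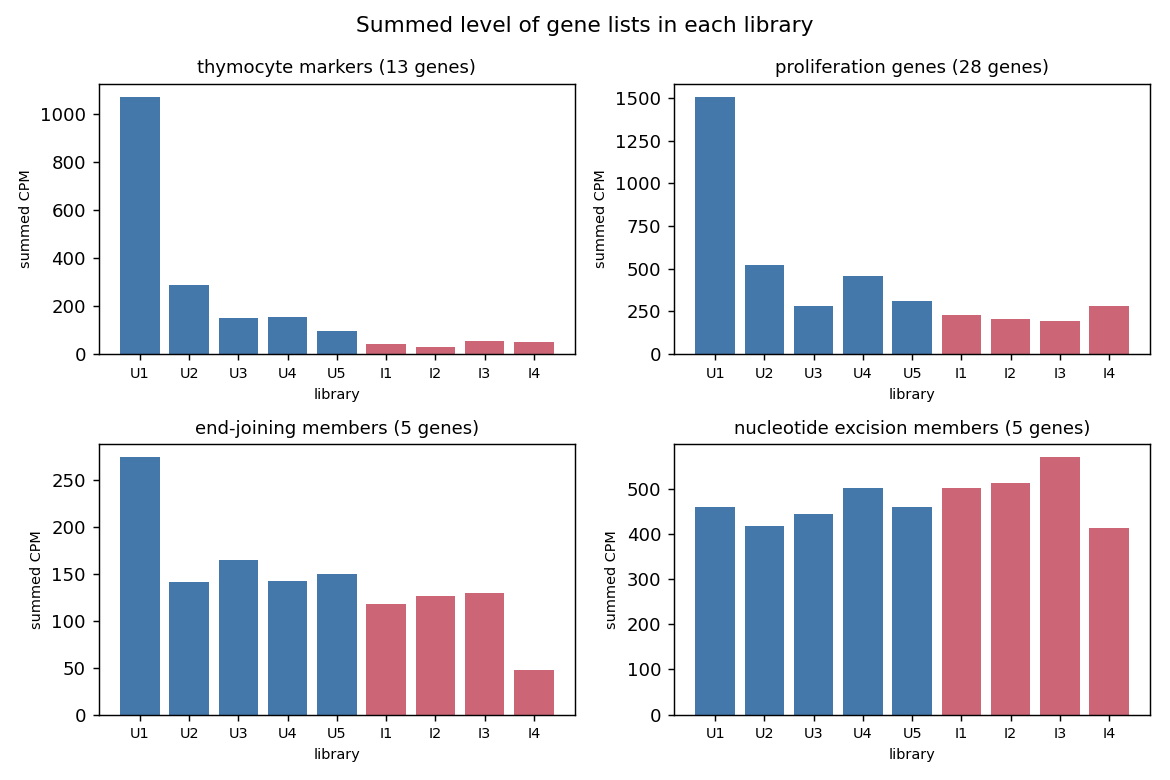
Summed CPM in each library (U, untreated in blue; I, irradiated in red; number, replicate) for thymocyte markers, proliferation genes, and the repair genes of end joining and of nucleotide excision. The first 3 lists are highest in untreated replicate 1, the end-joining sum is lowest in irradiated replicate 4 at 47.1 CPM, and the nucleotide excision sum stays between 413 and 570 CPM.

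A wider list of 132 other repair genes gave the same count of calls. Of these, 109 were in the table and 74 tested, with 0 called higher, 0 called lower and 7 (9.5%) at an unadjusted p under 0.05 by edgeR, close to the 10.6% of all tested genes. The fold change lay below 0 for 47 of the 74, with a median of -0.12. The 9 tested genes of a list of cohesin subunits and regulators besides Rad21, which also held Smc5 and Smc6 of the separate SMC5/6 complex, all lay below 0 (median -0.37, and 6 of 9 below 0 at -0.27 without untreated replicate 1 and irradiated replicate 4). The 11 tested other genes of checkpoint signalling had a median of -0.11, the 16 of nucleotide excision -0.20, the 11 of recombination -0.15, the 8 of base excision 0.10, the 6 of end joining 0.07, the 4 of mismatch repair 0.04 and the 9 of translesion synthesis and nucleotide supply 0.10. Several of these medians moved with 1 library. When untreated replicate 1 was left out, base excision was at 0.358, end joining at 0.439, mismatch repair at 0.018, translesion synthesis at 0.238 and checkpoint signalling at -0.038, with fewer genes tested in the first 3. When irradiated replicate 4 was left out, base excision was at -0.138, end joining at 0.02 and mismatch repair at 0.087.

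In 4 of the 74 wider genes the groups did not overlap, against 5.17% of all tested genes, and all 4 were lower in irradiated libraries, against 1.95%. Rrm2b, a p53-induced subunit of ribonucleotide reductase, was at 9.42, 14.6, 14.7, 17.0 and 15.4 CPM in untreated and 1.56, 6.30, 8.92 and 2.14 CPM in irradiated libraries. It rested on 55 and 16 counts, with a log2 fold change of -1.42 ± 0.47 (edgeR adjusted p = 0.220), while Cdkn1a was higher in the same irradiated libraries. Stag2, a cohesin subunit, was at 47.1, 35.0, 44.2, 45.9 and 30.7 CPM and at 28, 30.5, 29.0 and 8.56 CPM (-0.72 ± 0.31, edgeR adjusted p = 0.410).

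Dntt, the polymerase that adds bases at antigen receptor joints and a thymocyte marker, was at 181, 29.2, 12.3, 32.8 and 18.2 CPM and at 6.22, 0, 5.57 and 0 CPM (edgeR adjusted p = 0.198, and 0.0298 by the Wald test of DESeq2).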

How the data were processed

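Per the file headers, the deposited raw columns hold counts per gene symbol, whole numbers that were used as deposited. Software named in the submitters' processing notes is STAR 2.5.2b, HTSeq, cutadapt, bcl2fastq and DESeq2, with the build mm10 and no roles. For the sort gate, the strand setting and the collapsing of molecular identifiers, the answer is not given in the sources used here. Levels of the 17 of 36 genes whose exons overlap an opposite-strand gene are therefore uncertain. The overlaps were counted over whole genes, so some may lie away from the 3' ends that MARS-seq counts. The authors' deposited log2 fold change and adjusted p-value were read only for the comparison named with them.

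Genes were filtered by filterByExpr (minimum count 10), scaled by TMM and tested with robust quasi-likelihood F tests in edgeR 4.0.16 (R 4.3.3), over all 9 libraries, with Benjamini-Hochberg adjustment over 8934 genes at 0.05. Each SE was taken as the absolute fold change divided by the root of its F statistic, and the common biological coefficient of variation came to 28.9%. Intervals of pooled ratios and limits of 3 counts cover counting error only.

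The repair genes and lists were chosen with earlier results of these data known. Values of every library are given for the 2 tested genes with the smallest p in each pathway of 3 or more (1 in shorter ones), for genes called or without overlap, and for 3 others chosen after their values were seen (H2ax, Ddb2 and Xrcc5); genes under the filter are given as counts. Positions are from GENCODE M21 and upstream sequences from RefSeq, GRCm38.p6. The values of 1 wider gene without overlap are not reported here. An identifier in the wider list was an error and matched no row.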

Additional observations from a re-analysis of the deposited data

Results flagged for a closer look

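Among 58 groups of libraries checked, 2 for each tested repair gene, 5 held a library far from the others of its group, where chance alone would give about 1 in 20, or 2.9. Xrcc6 stood at 164.2 CPM in untreated replicate 1, against 41.8 to 49.6 CPM in the other untreated libraries. Lig1 stood at 52.3 CPM in the same library, against 16.0 to 23.6 CPM. Atr was at 4.28 CPM in irradiated replicate 4, where the other irradiated libraries ran from 15.6 to 17.8 CPM, and Parp1 at 14.7 CPM in irradiated replicate 2, against 27.9 to 29.9 CPM. Ercc1 was at 85.2 CPM in untreated replicate 4, against 71.1 to 74.95 CPM.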

How the results depend on the processing

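No repair gene of the 29 was called under any of the 18 alternatives in which it was tested. These included other scalings, filters and tools, a replicate block and leaving out each library. Without untreated replicate 1, 3 or 4, 28 of the 29 were tested, and Chek2 was not. Calls over all genes went from 108 higher and 11 lower to 184 and 100 by DESeq2, to 24 lower by limma-voom and 22 lower with the replicate block, and ranged from 50 to 114 higher and 2 to 12 lower without 1 library (irradiated replicate 1 left out, 50 and 2; irradiated replicate 2 left out, 64 and 2; untreated replicate 4 or irradiated replicate 3 left out, 6 lower). DESeq2 called 1 wider repair gene and 9 proliferation genes lower, against 0, and proliferation calls were 1 without a low-count filter and 2 with the replicate block. Same-numbered libraries did not deviate together (r = 0.065, -0.008, -0.121 and 0.14 for numbers 1 to 4), so the numbers are not taken to pair them; replicates 1 to 4 without the block gave 10 lower calls.

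Of 33 genes followed, 11 had a log2 fold change that turned sign in some setting, all uncalled. With limma-voom, Mdc1 was at 0.025, Lig1 at 0.014 and Rpa2 at 0.193. With the replicate block Mdc1 was at 0.021, Xrcc4 at -0.033, Lig1 at 0.009, Ercc3 at 0.035 and Rpa2 at 0.046, and without it over the same libraries Mdc1 was at 0.036, Xrcc4 at -0.019 and Ercc3 at 0.029. Xrcc1 was at 0.004 with either other filter and Lig1 at 0.004 by DESeq2. Without both untreated replicate 1 and irradiated replicate 4, Atm was at 0.067, Mdc1 0.244, Xrcc4 -0.021, Xrcc1 0.004, Lig1 0.174, Msh6 0.002 and Rpa2 0.263. Without 1 library the ranges were -0.282 to 0.09 for Atm, -0.376 to 0.118 for Mdc1, -0.303 to 0.013 for H2ax, -0.105 to 0.263 for Xrcc4, -0.113 to 0.094 for Xrcc1, -0.23 to 0.371 for Lig1, -0.157 to 0.14 for Ercc3, -0.028 to 0.219 for Ddb1, -0.058 to 0.365 for Ddb2 and -0.159 to 0.271 for Rpa2. The cause was not tested. All 5 recombination genes lay under the low-count filter.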
